A study of Mus musculus with 6 samples.

Results

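The intestinal identity factors described here are the 7 genes Hnf4a, Hnf4g, Cdx1, Cdx2, Gata4, Gata5 and Gata6, chosen by gene symbol from a table of 18448 genes, and all 7 were among the 14544 genes that passed a filter on low counts. Their RNA was measured by poly(A) sequencing of mouse jejunal organoids, epithelial cultures grown from the middle part of the small intestine of C57BL/6 mice. One group of 3 libraries came from organoids given 4-hydroxytamoxifen (4OHT), at 0.5 µM for 24 h, and the other group of 3 came from organoids given the vehicle DMSO. Every organoid in both groups carried Villin-CreERT2, a Cre recombinase that 4OHT activates and that the villin promoter drives in intestinal epithelium, together with Hnf4a flox/flox alleles. Every organoid was also grown with 200 ng/mL recombinant Wnt3A after passage and was harvested at day 2. The 4OHT group thus differs from the DMSO group in the drug, in Cre activity and in Hnf4a, and these cannot be told apart here. The labels do not say whether replicates came from separate mice or organoid lines, so p-values here rest on variation among libraries that could be technical only. The deleted part of Hnf4a is not given in the sources used here.

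Hnf4a and Hnf4g encode paired nuclear receptors of the HNF4 family, which bind the same DNA element and are known to switch on enterocyte genes of the brush border and of lipid transport. Cdx1 and Cdx2 encode caudal-type homeodomain factors, of which CDX2 is known to set intestinal as opposed to gastric identity during development. Gata4, Gata5 and Gata6 encode zinc finger factors, of which GATA4 is known to mark the duodenum and jejunum and to restrain ileal genes there, while GATA6 is present along the whole intestine. The 3 families are known to bind many of the same enterocyte enhancers.

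Hnf4a is transcribed from a distal (P2) and a proximal (P1) promoter and both are shown because the counts cannot be split between them. The windows run from 250 bases before to 50 bases after the RefSeq start site on GRCm38.p6. Capitals mark matches, on either strand, to the GATA motif AGATAA, the HNF4 motif CAAAGTCC or the CDX motif TTTATG.
Hnf4a P2, chr2:163506607-163506906, plus strand: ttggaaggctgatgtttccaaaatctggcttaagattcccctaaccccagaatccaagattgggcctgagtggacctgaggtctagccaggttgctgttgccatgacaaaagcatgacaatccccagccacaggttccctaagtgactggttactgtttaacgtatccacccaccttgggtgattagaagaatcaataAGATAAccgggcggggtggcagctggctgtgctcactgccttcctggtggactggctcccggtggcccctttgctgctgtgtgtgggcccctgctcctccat
Hnf4a P1, chr2:163546905-163547204, plus strand: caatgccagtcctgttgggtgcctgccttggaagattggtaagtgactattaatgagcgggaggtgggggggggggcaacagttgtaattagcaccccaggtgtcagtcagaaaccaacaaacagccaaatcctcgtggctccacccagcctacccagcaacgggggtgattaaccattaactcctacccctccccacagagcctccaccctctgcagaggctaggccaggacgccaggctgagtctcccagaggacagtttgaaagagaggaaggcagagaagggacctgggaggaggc
P2 held 1 GATA match, which began 52 bases before the start site. P1 held no match to the 3 motifs in this window, and neither did the windows of Cdx2 and Gata5, which are not shown. Among 32544 promoter windows of the same length, the GATA motif occurs in 11.2%, the CDX motif in 11.9% and the HNF4 motif in 1.43%. A match is a description of letters, not of binding.

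Library totals ran from 31537100 to 40276242 counts. Across all tested genes 132 were called by edgeR at an adjusted p under 0.05, 102 higher and 30 lower after 4OHT. Replicate 3 of each group lay further from replicates 1 and 2 than these lay from each other: chi-square divided by its degrees of freedom was 15 and 27.7 against 13.7 in 4OHT, and 55.2 and 50.6 against 6.97 in DMSO. Libraries with the same replicate number deviated together, so values from a fit with that number as a block are given where they change a result. Pan-epithelial markers summed to 15670 to 19090 CPM (counts scaled to a common library size) in 4OHT libraries and 12920 to 17300 CPM in DMSO libraries. Of 8 mesenchymal and endothelial markers 3 were measured, which summed to at most 0.806 CPM in 4OHT libraries and 0.653 CPM in DMSO libraries.

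Hnf4a, the gene targeted by the design, was the 1 identity factor that changed: it fell to 447 ± 30.6 CPM in 4OHT organoids, against 902 ± 103 CPM in DMSO organoids (SD, n = 3 each). Its level was 436, 424 and 482 CPM in 4OHT replicates 1 to 3, against 839.8, 846 and 1021 CPM in DMSO replicates 1 to 3. The groups stood well apart, and the highest library of each group was replicate 3. The log2 fold change was -1.01 (SE 0.10, 95% interval -1.25 to -0.78, edgeR adjusted p = 0.0124), so the 4OHT level was 0.42 to 0.58 of the DMSO level on this interval. Within same-numbered libraries the log2 difference was -0.946, -0.998 and -1.08. Over all genes, 0.206% were called lower and 0.908% were called in either direction, and 5.56% by DESeq2 in either direction; Hnf4a is the gene the design targets, so its call says nothing of the family. The call was lost without 4OHT replicate 1 (adjusted p = 0.0951), 2 (0.0629) or 3 (0.0621) and without DMSO replicate 1 (0.0572) or 2 (0.0606), with log2 fold changes from -1.07 to -0.98 in these fits, and it stood without DMSO replicate 3 (-0.92, adjusted p = 0.00543). Counts were 15081 to 19135 per library in 4OHT organoids, and counts over the whole gene do not give the share of recombined alleles.

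Hnf4a (ENSMUSG00000017950) lies on chromosome 2 from 163506808 to 163572910 on the plus strand (GRCm38), with 5 annotated transcripts. The antisense gene Hnf4aos overlaps its span but shares 0 exonic bases with it, and measured 0.169 to 0.353 CPM in 4OHT libraries and 0.245 to 0.97 CPM in DMSO libraries, below the filter. Of all 50-base stretches of Hnf4a transcripts, 0 occurred in a transcript of another gene, and the same held for Hnf4g, Cdx1, Cdx2 and Gata4. Reads of the paralogues can therefore be told apart at that length.

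**Figure D1:**
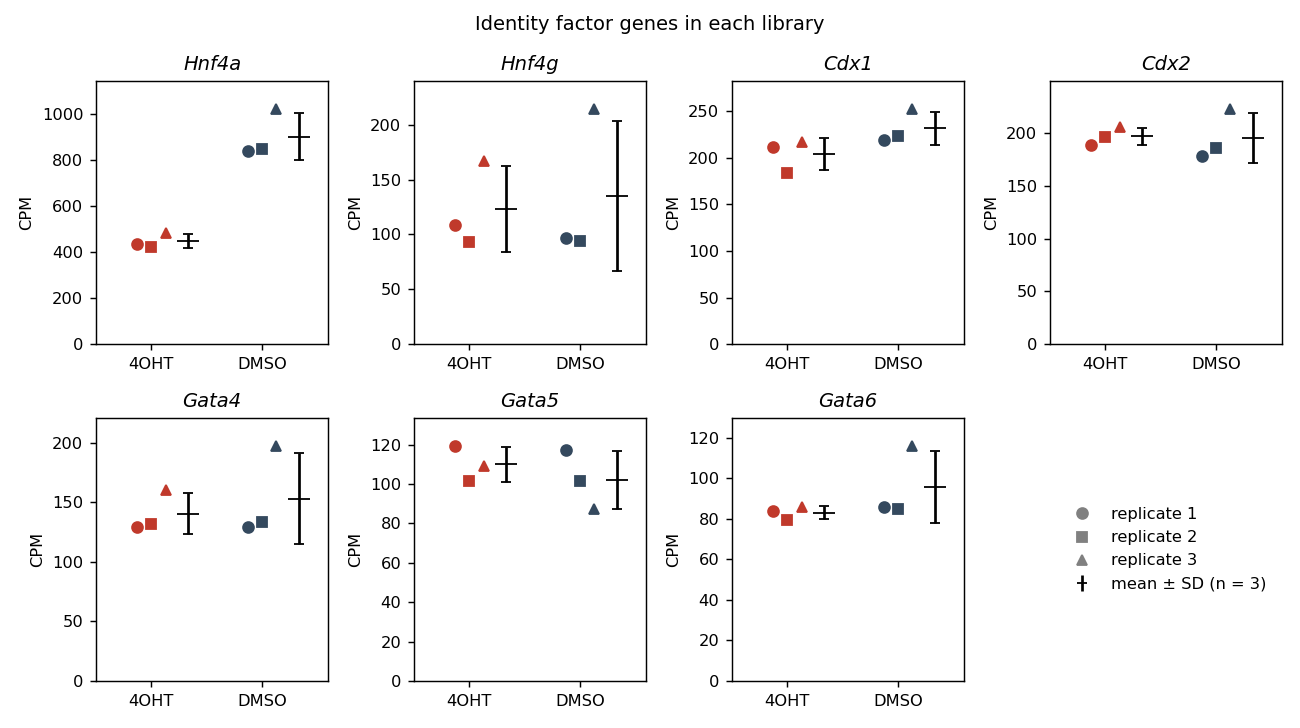
Scaled counts (CPM, y axis, from 0) of the 7 identity factor genes in each 4OHT and DMSO library, with the mean and SD of 3 libraries. Hnf4a is the gene whose groups stand widely apart, at 424 to 482 CPM in 4OHT and 839.8 to 1021 CPM in DMSO, and replicate 3 (triangles) is the highest DMSO library for 6 of the 7 genes.

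Hnf4g, the paralogue that shares the HNF4 DNA element, did not pass the test, and its level followed the replicate number more than the treatment. It measured 109, 92.9 and 167 CPM in 4OHT replicates 1 to 3, against 97.0, 94.0 and 214 CPM in DMSO replicates 1 to 3. Replicate 3 was high in both groups and the groups overlapped. The log2 fold change was -0.13 (SE 0.363, edgeR adjusted p = 0.90), with a 95% interval of -0.99 to 0.72 that spans 0.503 to 1.65 of the DMSO level. With the replicate block the estimate was -0.07 (SE 0.0987, adjusted p = 0.707), and without DMSO replicate 3 it was 0.36 (adjusted p = 0.503). Hnf4g (ENSMUSG00000017688) lies on chromosome 3 from 3508030 to 3658052 on the plus strand.

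The ratio of Hnf4g to Hnf4a was higher in 4OHT libraries, without passing its test. Hnf4a, the gene targeted by the design, is its denominator and fell (log2 fold change -1.01), while Hnf4g was not called (-0.13). The ratio therefore largely restates the fall of Hnf4a and does not show a rise of Hnf4g. Per exon length, as TPM (counts per exon length, scaled to the same sum in each library), Hnf4g made up 31.4%, 28.7% and 38.9% of the summed Hnf4a and Hnf4g level in 4OHT replicates 1 to 3, against 17.5%, 16.9% and 27.8% in DMSO replicates 1 to 3. The shares did not overlap between the groups but lay close between 4OHT replicate 2 and DMSO replicate 3. The log2 ratio of Hnf4g to Hnf4a averaged -1.03 ± 0.341 in 4OHT and -1.97 ± 0.514 in DMSO (SD, n = 3 each), a difference of 0.94 that was positive in 3 of 3 same-numbered pairs. An exact two-sided permutation test gave p = 0.10, the smallest value 3 against 3 libraries allow, and 0.20 after adjustment over the 4 paralogue ratios tested. The summed HNF4 level was 435, 404 and 518 TPM in 4OHT replicates 1 to 3, against 686, 691 and 892 TPM in DMSO replicates 1 to 3. Its 4OHT mean was 0.599 of the DMSO mean, and replicate 3 was highest in each group. The full exon length of Hnf4a was used in both groups, and its 4OHT reads can include RNA of recombined alleles. The sum, shares and ratio therefore do not give the amount of intact HNF4 RNA.

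**Figure D2:**
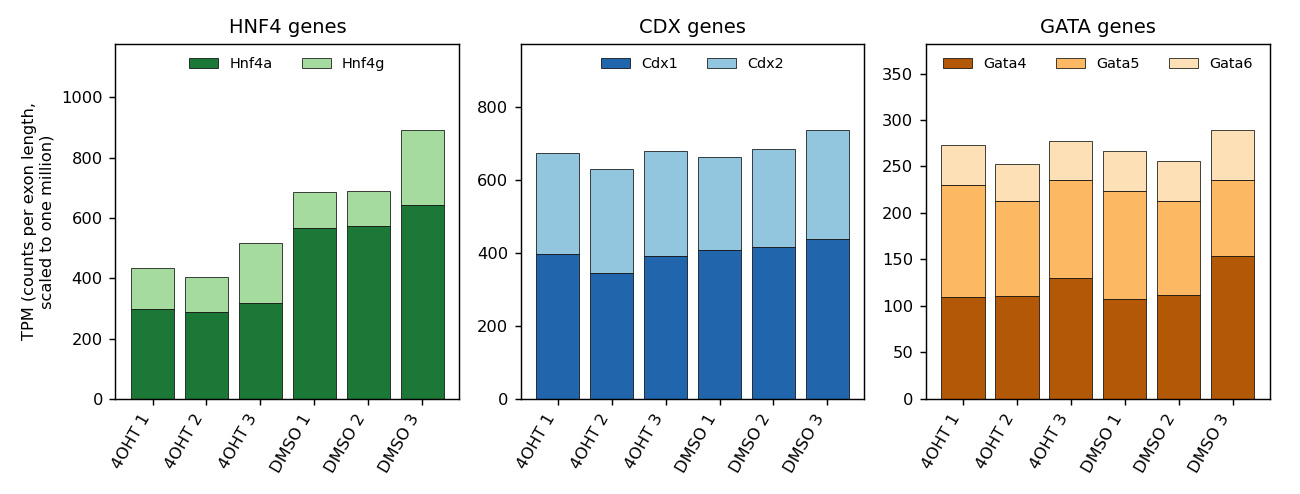
Stacked TPM (y axis, from counts per exon length) of the HNF4, CDX and GATA genes in each library, with 4OHT libraries left of DMSO libraries. The HNF4 stack is 404 to 518 TPM in 4OHT and 686 to 892 TPM in DMSO, while the CDX and GATA stacks have similar heights in both groups.

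The CDX genes did not pass the test. Cdx1, a caudal factor enriched in crypts, measured 211, 184 and 217 CPM in 4OHT replicates 1 to 3, against 219.7, 223 and 252 CPM in DMSO replicates 1 to 3. Every 4OHT library was below every DMSO library, and 10.1% of all tested genes showed such a lower, non-overlapping pattern. The log2 fold change of Cdx1 was -0.18 (SE 0.0871, 95% interval -0.39 to 0.02, edgeR adjusted p = 0.386), and with the replicate block it was -0.18 (SE 0.0565, adjusted p = 0.112). The interval allows a 4OHT level from 0.763 to 1.02 of the DMSO level.

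Cdx2, the caudal factor required for intestinal identity, had nearly the same mean in both groups. It measured 189, 196 and 205 CPM in 4OHT replicates 1 to 3, against 178, 185 and 222 CPM in DMSO replicates 1 to 3, and the 4OHT values lay inside the DMSO range. The log2 fold change was 0.01 (SE 0.0924, edgeR adjusted p = 0.968), and the 95% interval of -0.21 to 0.23 spans 0.867 to 1.17 of the DMSO level. The log2 ratio of Cdx1 to Cdx2 per length was 0.42 ± 0.129 in 4OHT and 0.62 ± 0.0626 in DMSO (SD, n = 3 each). It was lower after 4OHT in all 3 same-numbered pairs (difference -0.20, exact two-sided permutation p = 0.10, the smallest possible, and 0.20 adjusted over the 4 ratios). Cdx1 (ENSMUSG00000024619) lies on chromosome 18 from 61018862 to 61036199 and Cdx2 (ENSMUSG00000029646) on chromosome 5 from 147300805 to 147307270, both on the minus strand.

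The GATA genes did not pass the test either, and Gata4 and Gata6 differed from Gata5 in how DMSO replicate 3 behaved. Gata4, the jejunal member, measured 129.5, 131.5 and 160.2 CPM in 4OHT replicates 1 to 3, against 129, 133 and 197 CPM in DMSO replicates 1 to 3. In replicates 1 and 2 the groups were nearly equal, and replicate 3 was high in both. Its log2 fold change was -0.12 (SE 0.176, 95% interval -0.54 to 0.29, edgeR adjusted p = 0.792), and it was 0.09 without DMSO replicate 3 (adjusted p = 0.699). With the replicate block it was -0.10 (SE 0.0702, adjusted p = 0.421).

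Gata6, the member present along the whole intestine, measured 84.1, 79.7 and 85.6 CPM in 4OHT replicates 1 to 3, against 85.9, 85.0 and 116 CPM in DMSO replicates 1 to 3. DMSO replicate 3 alone stood high, and the groups overlapped. The log2 fold change was -0.20 (SE 0.124, 95% interval -0.49 to 0.09, edgeR adjusted p = 0.499), and without DMSO replicate 3 it was -0.05 (adjusted p = 0.738). Gata6 was lower after 4OHT in 3 of 3 same-numbered pairs, as were 24.5% of all tested genes.

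Gata5, the third GATA factor of the gut, measured 119, 102 and 109 CPM in 4OHT replicates 1 to 3, against 117, 102 and 87.4 CPM in DMSO replicates 1 to 3. DMSO replicate 3 was the lowest library, whereas it was the highest for every other identity factor. Gata5 was higher after 4OHT in 3 of 3 same-numbered pairs, as were 25.3% of all tested genes. The log2 fold change was 0.11 (SE 0.114, 95% interval -0.16 to 0.38, edgeR adjusted p = 0.713), and without DMSO replicate 3 it was 0.00 (0.001997, adjusted p = 0.994). The log2 ratio of Gata5 to Gata4 per length was -0.10 ± 0.220 in 4OHT and -0.31 ± 0.541 in DMSO (difference 0.22, exact two-sided permutation p = 0.60), and the difference was -0.08 without DMSO replicate 3. For Gata6 to Gata4 the log2 ratio was -1.49 ± 0.142 in 4OHT and -1.40 ± 0.0916 in DMSO (difference -0.08, exact two-sided permutation p = 0.60), each SD over 3 libraries. The antisense gene Gata5os overlaps 258 exonic bases of Gata5 and measured 0.674 to 0.916 CPM in 4OHT and 0.552 to 0.945 CPM in DMSO, far below Gata5. The gene 1010001N08Rik, antisense to Gata6 over 93 exonic bases, was not called by edgeR. Its part in the Gata6 counts was not tested.

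Gata4 (ENSMUSG00000021944) lies on chromosome 14 from 63198922 to 63271692 on the minus strand. Gata5 (ENSMUSG00000015627) lies on chromosome 2 from 180325133 to 180334699 on the minus strand, and Gata6 (ENSMUSG00000005836) on chromosome 18 from 11052064 to 11085635 on the plus strand. Gata4, Gata5 and Gata6 together summed to 273, 253 and 278 TPM in 4OHT replicates 1 to 3, against 267, 256 and 289 TPM in DMSO replicates 1 to 3, so the family total overlapped between the groups.

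**Figure D3:**
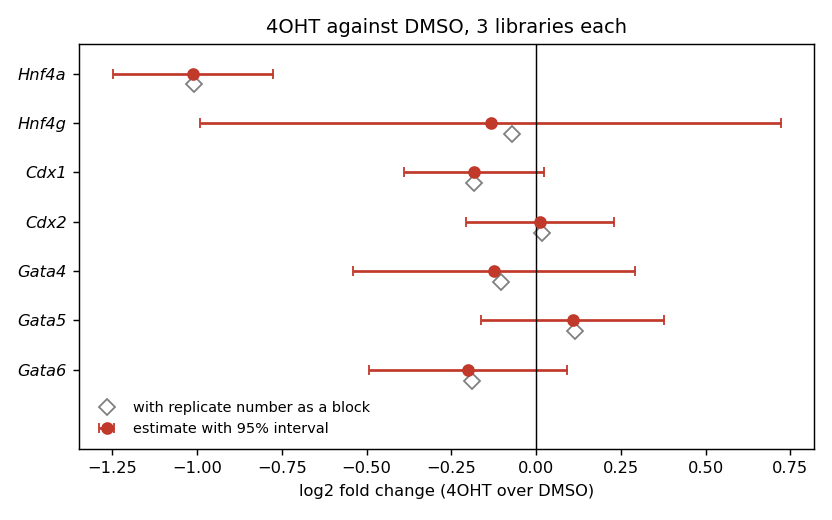
Log2 fold change (x axis, 4OHT over DMSO) of each identity factor gene with its 95% interval from edgeR, and the estimate with the replicate number as a block (open diamonds). The interval of Hnf4a, -1.25 to -0.78, lies wholly below 0, and those of the other 6 genes include 0, with Hnf4g the widest at -0.99 to 0.72.

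Of the 6 identity factors other than Hnf4a, 0 were called by edgeR, 0 by DESeq2, 0 by limma-voom and 0 with the replicate block, and 0 had an unadjusted edgeR p under 0.05 without the block. With the block Cdx1 had an unadjusted p of 0.0179 in edgeR, beside 12% of all tested genes lower and 13.3% higher at an unadjusted p under 0.05 in that fit. The smallest adjusted p of any of them was 0.112, for Cdx1 with the block, where 6.99% of all tested genes were called. The intervals differ in what they allow: the lower bounds of Cdx1, Cdx2, Gata4, Gata5 and Gata6 were -0.54 or above, whereas that of Hnf4g was -0.99. In the authors' deposited table the log2 fold changes of these 6 genes ran from -0.204 for Gata6 to 0.108 for Gata5, with the smallest edgeR adjusted p at 0.72 for Cdx1. For Hnf4a the authors' deposited table gave -1.014, with an edgeR adjusted p of 2.1e-12 and a DESeq adjusted p of 4e-07.

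The order of the levels per length changed at the top and stayed the same below it. In 4OHT libraries the order of mean TPM was Cdx1 (379 ± 29.4), Hnf4a (301 ± 14.3), Cdx2 (283 ± 6.11), Hnf4g (152 ± 44.7), Gata4 (117 ± 11.6), Gata5 (109 ± 9.84) and Gata6 (41.6 ± 1.26, SD, n = 3). In DMSO libraries it was Hnf4a (594 ± 42.9), Cdx1 (422 ± 15.6), Cdx2 (274 ± 22.3), Hnf4g (162 ± 74.7), Gata4 (124 ± 25.7), Gata5 (99.65 ± 17.65) and Gata6 (46.7 ± 6.59, SD, n = 3). Hnf4a thus ranked below Cdx1 in all 3 libraries of the 4OHT group and above it in all 3 of the DMSO group. The full exon length of Hnf4a was used in both groups, so its 4OHT rank can count RNA of recombined alleles. Among 14487 tested genes with an annotated length, Hnf4a had the 515th highest mean TPM in 4OHT and the 229th highest in DMSO. In both groups the ranges of Hnf4g and Gata4, and of Gata4 and Gata5, ran into each other, so neither pair of neighbours was separated by the spread over libraries. Within libraries Hnf4g was above Gata4 in 3 of 3 of each group and Gata4 above Gata5 in 2 of 3 of each group, while Gata6 was below Gata5 in every library.

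Within each group, log2 CPM in replicate 3 was set against the average of the other two replicates. Hnf4g was higher in replicate 3 by 0.73 in 4OHT and 1.16 in DMSO, and Gata4 by 0.30 in 4OHT and 0.59 in DMSO. Gata6 was higher by 0.07 in 4OHT and 0.44 in DMSO, and Hnf4a by 0.16 in 4OHT and 0.28 in DMSO. The CDX genes shifted by 0.09 to 0.29 in either group. Gata5 shifted by -0.02 in 4OHT and -0.32 in DMSO. Enterocyte markers were also higher in replicate 3, with a median of 0.55 in 4OHT and 0.97 in DMSO over the 15 tested, and the 12 stem and proliferation markers had medians of -0.22 in 4OHT and -0.17 in DMSO. Over all tested genes 22.6% had replicate 3 as the highest library in both groups, as did Hnf4a, Hnf4g, Cdx1, Cdx2, Gata4 and Gata6. The part of these markers in the levels of the identity factors was not tested. In such bulk libraries fewer cells of a type and less RNA per cell cannot be told apart.

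**Figure D4:**
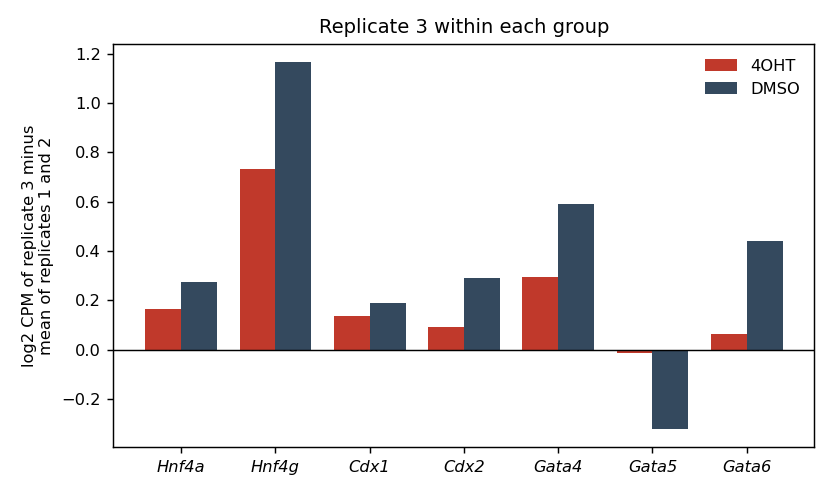
Log2 CPM of replicate 3 minus the mean of replicates 1 and 2 (y axis) for each identity factor, in 4OHT (red, left bar) and DMSO (dark, right bar). Hnf4g shows the tallest bars, at 0.73 and 1.16, and Gata5 is the gene with both bars below 0.

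Genes with the most similar profile over the 6 libraries were found by the root-mean-square difference in centred log2 CPM, among 9091 genes averaging 10 CPM or more. Closest to Hnf4a were Slc16a12 (0.12), Prap1 (0.121) and Agmat (0.121), beside a spread of Hnf4a about its own mean of 0.516. Agmat, the agmatinase gene, measured 15.5, 12.95 and 14.8 CPM in 4OHT replicates 1 to 3, against 31.1, 31.3 and 37.6 CPM in DMSO replicates 1 to 3. Agmat was picked for its likeness to Hnf4a over these same libraries. Its separate groups and high DMSO replicate 3 follow from that choice. Closest to Hnf4g were Slc10a5 (0.0542), Cyp2c65 (0.063) and Ccl6 (0.077), beside its own spread of 0.465. Cyp2c65, a cytochrome P450 gene, was at 276, 225 and 415 CPM in 4OHT replicates 1 to 3 and at 226, 216 and 479 CPM in DMSO replicates 1 to 3. Its high replicate 3 in both groups likewise follows from how it was picked.

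The other members had flatter profiles, with spreads about their own means of 0.134 for Cdx1, 0.105 for Cdx2, 0.227 for Gata4, 0.151 for Gata5 and 0.177 for Gata6. Closest to Cdx1 were Azin1, Slc12a7 and Zfp623 (0.0243 to 0.0401), and closest to Cdx2 were Kmt2e, Chd9 and Phkb (0.018 to 0.0211). Closest to Gata4 were Akr1c12, Tiparp and Ppap2a (0.0317 to 0.0368), to Gata5 Ppp1r2, Znrf1 and Serinc2 (0.0363 to 0.0428), and to Gata6 Pex5, Fam53b and Lpar5 (0.0237 to 0.0326). Among the 7 identity factors themselves the closest pair was Cdx1 and Gata6 (0.0951), then Gata4 and Gata6 (0.106), whereas Hnf4a was at least 0.416 from every other member.

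Genes known as HNF4 targets were mostly lower after 4OHT, but none passed edgeR's test without the replicate block. Of 16 tested, 15 were negative, beside 7395 of all 14544 tested genes. Genes of a list can vary together, so their signs are not separate counts. The median log2 fold change was -0.41 beside -0.00 (-0.004067) over all tested genes. By edgeR 0 were called, with 5 lower and 1 higher at an unadjusted p below 0.05, while DESeq2 called 3 lower and limma-voom 0. Over all tested genes 6.34% were lower and 8.65% higher at that unadjusted p, and DESeq2 called 1.94% lower and 3.62% higher. With the replicate block 6 fell and 1 rose, beside 3% of all genes called lower and 3.99% called higher. Apoc2, an apolipoprotein gene, fell with the block (adjusted p = 0.00659, 0.0731 without it) and measured 29.7, 22 and 31.6 CPM in 4OHT replicates 1 to 3, against 48.0, 41.2 and 51.6 CPM in DMSO replicates 1 to 3. Its groups did not overlap, beside 10.1% of all tested genes with such a lower pattern. Apoa1, the main protein gene of high-density lipoprotein, was at 423 ± 89.98 CPM in 4OHT and 719 ± 167 CPM in DMSO (SD, n = 3 each, log2 fold change -0.77, edgeR adjusted p = 0.152, and 0.00581 with the block). Ttr, the transthyretin gene, had 1.36 ± 0.412 CPM in 4OHT and 5.97 ± 3.16 CPM in DMSO (SD, n = 3 each, -2.13, edgeR adjusted p = 0.0717, and 0.0228 with the block). Dgat2, a triglyceride synthesis gene, was the 1 that rose with the block, at 125 ± 17.7 CPM in 4OHT and 95.5 ± 8.45 CPM in DMSO (SD, n = 3 each, 0.39, edgeR adjusted p = 0.185, and 0.0179 with the block).

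Genes known as CDX targets went both ways. Of 12 tested, 8 were negative with a median log2 fold change of -0.14, and edgeR called 0 (3 lower at an unadjusted p below 0.05), DESeq2 1 lower and limma-voom 0, beside 6.34% of all tested genes lower at that unadjusted p and 1.94% by DESeq2. The replicate block called 3% of all tested genes lower and 3.99% higher. With it 2 CDX targets fell, the vitamin D receptor gene Vdr (-0.55, edgeR adjusted p = 0.0486) and the guanylin receptor gene Gucy2c (-0.38, edgeR adjusted p = 0.0479), and 1 rose, the goblet cell mucin gene Muc2 (1.03, edgeR adjusted p = 0.0422), named here after its values were seen. Without the block their adjusted p was 0.316, 0.415 and 0.426. Heph, which encodes an iron oxidase, was at 137.5 ± 13.7 CPM in 4OHT and 173 ± 12.7 CPM in DMSO (SD, n = 3 each, -0.33, edgeR adjusted p = 0.155). The intestinal cadherin gene Cdh17, also named after its values were seen, had a log2 fold change of 0.00 (0.0004375).

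All 6 tested jejunal genes known to need GATA4 had a negative log2 fold change (median -0.57), beside 7395 of all 14544 tested genes. Of these 6 only Cubn is not also counted among the HNF4 or CDX targets above, so these lists are not separate counts. By edgeR 0 of the 6 were called, with 1 lower at an unadjusted p under 0.05, 1 lower by DESeq2, 0 by limma-voom and 1 lower with the block. The shares of all tested genes that were lower were 6.34% at the unadjusted p, 1.94% by DESeq2 and 3% with the block. The lactase gene Lct measured 8.47, 5.54 and 4.83 CPM in 4OHT replicates 1 to 3, against 10.3, 11.3 and 20.6 CPM in DMSO replicates 1 to 3. Its groups did not overlap, beside 10.1% of all tested genes with such a lower pattern. Lct missed the edgeR threshold (-1.16, edgeR adjusted p = 0.156, and 0.0994 with the block) but was the gene called lower by DESeq2 (adjusted p = 0.00657). The gene called with the block was Fabp2 (-0.36, edgeR adjusted p = 0.0238, and 0.641 without it), named after its values were seen. The sucrase-isomaltase gene Sis was at 782, 556 and 1206 CPM in 4OHT replicates 1 to 3, against 906, 878 and 2573 CPM in DMSO replicates 1 to 3, and replicate 3 was highest in both groups (-0.78, edgeR adjusted p = 0.499).

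Ileal genes known to be restrained by GATA4 had both signs. Of 5 tested, 3 were negative (median -0.42) and edgeR called 0 (1 higher at an unadjusted p under 0.05), DESeq2 0, limma-voom 0 and the block fit 1 lower, beside 8.65% of all tested genes higher at the unadjusted p and 3% lower with the block. The ileal bile acid transporter gene Slc10a2 measured 5.67, 6.74 and 7.05 CPM in 4OHT replicates 1 to 3, against 4.61, 4.90 and 2.47 CPM in DMSO replicates 1 to 3 (0.69, edgeR adjusted p = 0.267, and 0.137 with the block). The groups of Slc10a2 did not overlap, beside 12.5% of all tested genes with such a higher pattern. Slc51b, a basolateral bile acid transporter subunit gene, fell with the block (-1.14, adjusted p = 0.0413) and was at 1.19 ± 0.629 CPM in 4OHT and 2.58 ± 1.15 CPM in DMSO (SD, n = 3 each, edgeR adjusted p = 0.335 without it).

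Of the other gut transcription factors, 20 were tested. Of these, 12 were negative with a median log2 fold change of -0.06. By edgeR 0 were called, with 2 in each direction at an unadjusted p below 0.05, while DESeq2 called 1 higher, limma-voom 0, and the block fit 1 higher and 2 lower. These counts lie near the shares over all tested genes, which were 8.65% higher and 6.34% lower at the unadjusted p, 3.62% higher by DESeq2, and 3.99% higher and 3% lower with the block. Foxa1, a forkhead pioneer factor gene, measured 121, 134 and 118 CPM in 4OHT replicates 1 to 3, against 87.9, 95.4 and 70.6 CPM in DMSO replicates 1 to 3. Its groups did not overlap, beside 12.5% of all tested genes with such a higher pattern. Foxa1 rose with the block (0.56, edgeR adjusted p = 0.0143, and 0.0841 without it). Nr1i2, which encodes the xenobiotic receptor PXR, was at 51.0 ± 5.98 CPM in 4OHT and 68.3 ± 10.9 CPM in DMSO (SD, n = 3 each) and fell with the block (-0.42, edgeR adjusted p = 0.0135, and 0.201 without it).

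Of 15 related family members and cofactors 6 were tested, and 0 were called by edgeR, DESeq2, limma-voom or the block fit, with 0 at an unadjusted p under 0.05. Ldb1, which encodes a bridging cofactor, was at 112 ± 7.25 CPM in 4OHT and 104 ± 8.08 CPM in DMSO (SD, n = 3 each, 0.10, edgeR adjusted p = 0.594). Rxra was at 77.7 ± 6.49 CPM in 4OHT and 88.0 ± 24.4 CPM in DMSO (SD, n = 3 each, -0.18, edgeR adjusted p = 0.702). Gata3 stayed below the filter, at 0.0755 to 0.258 CPM in 4OHT and 0.0325 to 0.139 CPM in DMSO.

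The duodenal factor gene Pdx1 was at 0.982 ± 0.161 CPM in 4OHT and 1.30 ± 0.114 CPM in DMSO (SD, n = 3 each, log2 fold change -0.40, edgeR adjusted p = 0.409). Of 10 tested gastric epithelial genes 3 rose and 0 fell in edgeR without the block, where 0.701% of all tested genes were called higher, and 6 rose and 1 fell with it, where 3.99% of all tested genes were called higher and 3% lower. The trefoil gene Tff1 rose (3.71, edgeR adjusted p = 0.0093), as did the gastrokine genes Gkn1 (2.13, adjusted p = 0.0326) and Gkn2 (3.10, adjusted p = 0.0362), both at most 2.05 CPM in any library. Gkn2 was at 0.0325 to 0.136 CPM in DMSO libraries and passed the low-count filter only through its 4OHT libraries (0.534 to 0.906 CPM). The same held for Tff2, 1 of the 6 that rose with the block (0.0834 to 0.195 CPM in DMSO, 0.43 to 1.31 CPM in 4OHT). The filter thus favoured a rise of these genes. The pepsinogen gene Pgc fell with the block (-1.53, edgeR adjusted p = 0.0249, and 0.0791 without it), from a mean of 1.47 CPM in DMSO to 0.515 CPM in 4OHT. The gastrokine gene Gkn3 had a log2 fold change of -0.04 (edgeR adjusted p = 0.967). Pgc, Gkn3 and Tff2 were named after their values were seen. The Tff1 call was lost without 4OHT replicate 1 (0.059) or DMSO replicate 1 (0.0572) or 2 (0.0606). The calls of Gkn1 and Gkn2 were lost on leaving out any library but DMSO replicate 3, with adjusted p from 0.0576 to 0.15 for Gkn1 and 0.0745 to 0.163 for Gkn2. The level of Cdx2, whose product is known to hold gastric genes off, is given above. Any part of it in the gastric genes was not tested.

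Markers of the cell types in these organoids are given here beside the identity factors. All 15 enterocyte markers had a negative log2 fold change (median -0.71), beside 7395 of all 14544 tested genes. Of these markers 0 were called by edgeR (5 lower at an unadjusted p under 0.05), 4 lower by DESeq2, 0 by limma-voom and 5 lower with the block. Over all tested genes the shares called lower were 6.34%, 1.94% and 3% by the unadjusted p, DESeq2 and the block. The enterocyte markers summed to 2192 to 3495 CPM in 4OHT libraries and 3067 to 6003 CPM in DMSO libraries. All 7 goblet cell markers were positive (median 0.81), beside 7149 of all 14544 tested genes. Of these 7, 0 were called by edgeR (3 higher at an unadjusted p under 0.05), 2 higher by DESeq2, 0 by limma-voom and 6 higher with the block. Over all tested genes 8.65%, 3.62% and 3.99% were called higher by the unadjusted p, DESeq2 and the block. The goblet cell markers summed to 3619 to 6131 CPM in 4OHT and 2229 to 4201 CPM in DMSO. The 12 stem and proliferation markers had a median of -0.09, with 0 called by edgeR (2 lower at an unadjusted p under 0.05), 0 by DESeq2, 0 by limma-voom and 1 lower with the block. That 1 was Axin2 (edgeR adjusted p = 0.0265 with the block, 0.586 without it). The median joins stem markers that were all negative (Lgr5 -0.06, Olfm4 -0.49, Ascl2 -0.37, Smoc2 -0.33, Axin2 -0.34) and proliferation markers from -0.12 (Birc5) to 0.05 (Mki67), genes named after their values were seen. The 6 Paneth cell markers had a median of -0.02, with 3 positive and 3 negative. Of them 1, Lyz1, fell (-0.78, edgeR adjusted p = 0.0318), beside 0.206% of all tested genes called lower by edgeR. DESeq2, limma-voom and the block each called this 1 lower as well. The edgeR call was lost without 4OHT replicate 1 (adjusted p = 0.155), 2 (0.0774) or 3 (0.13) and without DMSO replicate 1 (0.0572) or 2 (0.107). Enteroendocrine and tuft cell markers had medians of 0.21 and 0.12, with 0 of 7 and 0 of 4 called by edgeR, 0 and 1 at an unadjusted p under 0.05, 0 and 1 by DESeq2, and 1 of each list higher with the block. The 3 tested immune cell markers had a median of 0.45, with 0 called by edgeR (1 higher at an unadjusted p under 0.05) or DESeq2, and summed to 5.33 to 6.69 CPM in 4OHT and 4.65 to 5.43 CPM in DMSO. The part of the enterocyte and goblet cell markers in the target lists above, which share genes with them, was not tested.

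**Figure D5:**
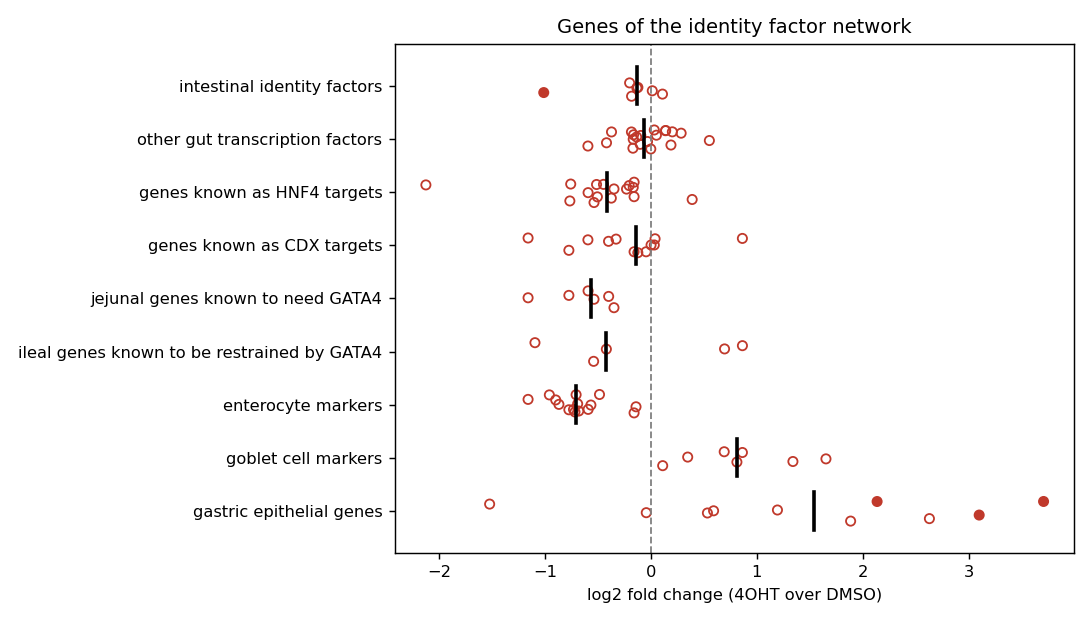
Log2 fold change (x axis, 4OHT over DMSO) of tested genes in 9 lists, with filled points for genes called by edgeR without the block, a black bar at each list's median and a dashed line at the median of all tested genes. The identity factors other than Hnf4a, at -1.01, lie near the dashed line, the median of HNF4 targets is -0.41 and that of gastric epithelial genes is 1.54. The gastric list includes Gkn2 and Tff2, which passed the filter only through their 4OHT libraries.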

How the data were processed

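Poly(A) RNA was sequenced from 3 4OHT and 3 DMSO organoid libraries. STAR 2.4.0f1, bcl2fastq 1.8.4 and the build GRCm38 are named in the submitters' processing notes. The counting program and its strand setting are not given in the sources used here. The authors deposited raw counts per gene, per the file headers, for 18448 genes, each with at least 10 counts in total. They also deposited a normalised score per library, per the file headers, which was not used, and log2 fold changes with p-values from DESeq and edgeR, which are quoted only where named.

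Raw counts were tested in R 4.3.3 with edgeR 4.0.16 (quasi-likelihood F test, TMM scaling, filterByExpr by group, no other term), and p-values were two-sided and adjusted by Benjamini-Hochberg over all 14544 tested genes. The filter removed 3904 genes. Calls used an adjusted p threshold of 0.05. CPM use TMM-adjusted library sizes, and TPM were computed from counts and GENCODE M21 exon lengths (18351 genes), so only TPM compare levels between genes. Ratios of paralogues use length-scaled counts plus 0.5. Intervals come from the edgeR standard errors at 95%.

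On counts simulated from these libraries' means and spread (14373 genes), the test recovered 91% of 100 genes changed by 1 log2 unit and 99% of 100 changed by 2, with 11 false calls. The simulated libraries shared no replicate effect, and the changed genes were not drawn from those with the lowest counts. The recovery is an average and does not hold for a gene of wide spread such as Hnf4g. After subtracting group means, correlations were 0.291, 0.309 and 0.41 between libraries of the same replicate number, so a fit with the number as a block is given as an alternative, on these data and not on the labels; the fit without it and the exact permutation tests are unpaired.

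Alternatives were the replicate block, DESeq2 1.42.0, limma-voom (limma 3.58.1), other scalings and filters, and leaving out libraries. The genes, lists and tests were chosen with earlier results of these data known. From each list up to 4 genes with the smallest p-values are named, and for each identity factor the 3 genes with the most similar profile among those with a mean of at least 10 CPM; others are said to have been named after their values were seen. Promoters are from RefSeq (GRCm38.p6), where Hnf4a, Cdx2 and Gata5 matched by symbol outside chromosome 18. Replicates limit precision more than depth does, and counting error alone is not the error given.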

Additional observations from a re-analysis of the deposited data

How the results depend on the processing

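Hnf4a kept its direction in all 14 alternative fits and its call in 9, and leaving out 1 library gave log2 fold changes from -1.07 to -0.92. Cdx1, Gata5 and Gata6 kept their direction, and none of the 6 other identity factors was called, in any of the 14 fits. Over the fits that left out 1 library the log2 fold change ran from -0.42 to 0.36 for Hnf4g, -0.051 to 0.11 for Cdx2 and -0.23 to 0.0943 for Gata4, and with replicates 1 and 2 alone that of Hnf4g was 0.0725. The log2 ratio difference of Gata5 to Gata4 ran from -0.0845 to 0.43, and that of Hnf4g to Hnf4a from 0.75 to 1.24. Pairing the libraries in an exact sign-flip test gave p = 0.25 for each of the 4 ratios, the smallest possible.

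The count of changed genes was 132, against 1017 with the replicate block, 762 by DESeq2, 49 with a mean of at least 10 CPM required, 601 with replicates 1 and 2 alone, and 4 to 340 without 1 library. Genes called in the lists numbered 4, against 35, 19, 2 and 25 in the same 4 alternatives, and 0 to 12 without 1 library. The sign of the log2 fold change turned without 1 library for Defa17 (-0.16 to 0.0118), Itln1 (-0.0304 to 0.17), Pou2f3 (-0.12 to 0.43) and Rxra (-0.30 to 0.0663), and with replicates 1 and 2 alone for Rxra (0.0167) and Trpm5 (0.0573). The cause was not tested. The replicate block changed the call of no identity factor.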
